A study of Sus scrofa with 10 samples.

Results

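Intermediate filaments are the rope-like part of the cytoskeleton, and the nuclear lamins are the branch of the same protein family that lines the inside of the nuclear envelope. This account follows 10 genes of the family, chosen by symbol: the muscle filament gene DES (desmin), VIM (vimentin), NES (nestin) and SYNM (synemin), the keratins KRT8, KRT18 and KRT19, and the lamins LMNA, LMNB1 and LMNB2. Of these 10, 7 had a row in the table, which holds 12378 genes with a symbol and 3260 without. SYNM, KRT18 and KRT19 are not analysed here, because KRT18's identifier matched no row and the other pair had no entry in the table of identifiers.

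Expression was measured in right ventricular biopsies from 10 pigs, of which 5 had CTEPH and 5 were Sham animals, where CTEPH stands for chronic thromboembolic pulmonary hypertension, a disease in which clotted lung arteries raise the pressure that the right heart pumps against. Each pig gave 1 library, named s1 to s10 after the labels: the CTEPH libraries are s1, s3, s4, s5 and s9, the Sham libraries s2, s6, s7, s8 and s10. No source used here gives the pigs' strain, sex or age, the way CTEPH was induced or the time to biopsy. In such bulk tissue, fewer cells of a type and less RNA per cell cannot be told apart.

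Relative depth, read from low genes whose whole counts could be recovered, was 0.724 to 1.57 in CTEPH and 0.748 to 1.51 in Sham. Libraries correlated across genes at Pearson r of 0.943 to 0.964 within CTEPH and 0.959 to 0.972 within Sham, where genes are not independent replicates. Of the cardiomyocyte markers listed for the tissue check, MYL2, CSRP3 and CKM were at high levels in both groups. MYL2 was at a log2 value of 19.81 ± 0.25 in CTEPH and 18.83 ± 0.25 in Sham (n = 5 each, ± SD).

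In a heart muscle cell, desmin filaments tie the Z-discs of neighbouring myofibrils to each other, to the cell membrane and to the nucleus, and so pass force across the cell. Vimentin is the main filament of fibroblasts, endothelial cells and leukocytes, and nestin, which forms filaments together with desmin or vimentin, is known from developing and regenerating muscle and from vessel-forming cells. Keratin 8 pairs with keratin 18 in simple epithelia, and in mouse both have also been found in heart muscle cells. Lamins A and C, spliced from LMNA, stiffen the nucleus of load-bearing cells, while the B-type lamins LMNB1 and LMNB2 stay anchored in the nuclear membrane by a lipid.

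Desmin, keratin 8 and both B-type lamin genes rose in the CTEPH ventricles, and none of the 7 genes fell. The remaining genes, VIM, NES and LMNA, had positive log2 fold changes that did not pass an adjusted p of 0.05 (limma, Benjamini-Hochberg over all genes). Thus 4 of the 7 measured genes were called, against 4.62% of all genes tested. All 4 were higher, against 2.83% of all genes, and 0 were lower, against 1.79%. The median log2 fold change (CTEPH minus Sham) was 1.29 over the 7 genes and -0.03 over all genes. All CTEPH libraries lay above all Sham libraries for 3 of the 7 genes, DES, LMNB1 and LMNB2, against 3.7% of all genes, and below them for 0, against 2.87%.

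**Figure D1:**
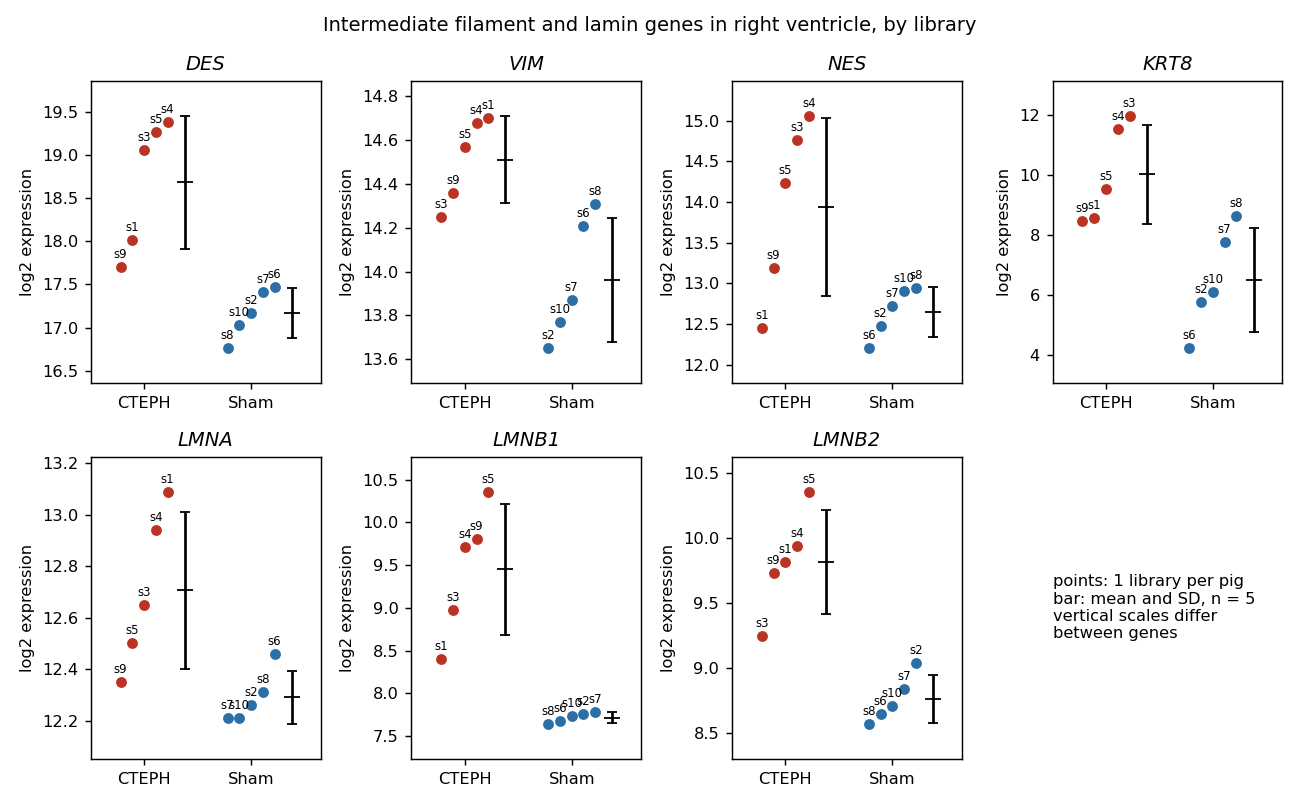
Log2 expression of the 7 measured filament and lamin genes in each library, with CTEPH left and Sham right in each panel; points are pigs, labelled by library, and bars show the mean and SD of 5. The groups are apart for DES, LMNB1 and LMNB2 and overlap for the others, and the Sham points of LMNB1 lie within 0.136 of each other.

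DES encodes desmin, the filament protein of all muscle, and lies on chromosome 15 from 121428539 to 121435426 (Sscrofa11.1, RefSeq; counted from 1). Its log2 values were 18.01 in s1, 19.05 in s3, 19.38 in s4, 19.26 in s5 and 17.70 in s9 for CTEPH, against 17.17 in s2, 17.47 in s6, 17.41 in s7, 16.76 in s8 and 17.03 in s10 for Sham. The groups did not overlap, but the CTEPH pigs split into 3 high libraries and 2, s1 and s9, that stood only a little above the highest Sham library. The mean was 18.68 ± 0.77 in CTEPH and 17.17 ± 0.29 in Sham (n = 5 each, ± SD). Desmin thus rose by 1.51 ± 0.32 on the log2 scale (SE; 95% confidence interval 0.83 to 2.20; adjusted p = 0.0181, limma with Benjamini-Hochberg), or 2.86-fold.

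Desmin held one of the highest values in every library. It ranked 8th to 23rd of all genes in the CTEPH libraries and 27th to 40th in the Sham libraries, ranks that are not corrected for gene length. Because quantile normalization gives each rank its own value, with 1 shared value in all libraries at 96 of the 100 highest ranks, the desmin log2 values are steps between ranks. In the library where desmin ranked 10th, s3, the next higher gene was 0.211 away.

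VIM encodes vimentin and lies on chromosome 10 from 43516441 to 43526172. The CTEPH libraries had log2 values of 14.70 in s1, 14.25 in s3, 14.68 in s4, 14.57 in s5 and 14.36 in s9, against 13.65 in s2, 14.21 in s6, 13.87 in s7, 14.31 in s8 and 13.77 in s10 for Sham. Of the CTEPH libraries, 4 exceeded every Sham library, and s3 lay between the top pair of Sham values. The difference of 0.55 ± 0.16 (SE; interval 0.21 to 0.89) missed the threshold (adjusted p = 0.0692, limma with Benjamini-Hochberg). Unlike desmin, vimentin was tightly grouped in CTEPH, with a SD of 0.20 in CTEPH and 0.29 in Sham (n = 5 each), and its highest CTEPH library was s1.

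NES encodes nestin, a large filament protein of immature and regenerating cells, on chromosome 4 from 93412660 to 93421899. Its log2 values were 12.45 in s1, 14.76 in s3, 15.06 in s4, 14.24 in s5 and 13.19 in s9 for CTEPH, against 12.48 in s2, 12.20 in s6, 12.72 in s7, 12.94 in s8 and 12.90 in s10 for Sham. Nestin was far above Sham in s3, s4 and s5, slightly above in s9 and within the Sham range in s1. With a mean of 13.94 ± 1.09 in CTEPH and 12.65 ± 0.31 in Sham (n = 5 each, ± SD), the difference of 1.29 ± 0.41 (SE; interval 0.41 to 2.18) missed the threshold (adjusted p = 0.0935, limma, Benjamini-Hochberg). The outcome turned on library s1: without it the difference was 1.67 ± 0.32 and passed (adjusted p = 0.0109, limma with Benjamini-Hochberg). That refit also called more of all genes, 961 against 723 with all libraries.

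KRT8 encodes keratin 8, on chromosome 5 from 18172423 to 18180277, 37.4 kb from the gene of its partner KRT18. It had the largest log2 fold change and the widest spread of the 7 genes. The CTEPH libraries had log2 values of 8.58 in s1, 11.98 in s3, 11.53 in s4, 9.55 in s5 and 8.47 in s9, against 5.77 in s2, 4.21 in s6, 7.78 in s7, 8.64 in s8 and 6.09 in s10 for Sham. The highest Sham library, s8, lay above CTEPH libraries s1 and s9, so the groups overlapped.

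Keratin 8 rose by 3.53 ± 0.85 on the log2 scale (SE; interval 1.70 to 5.36; adjusted p = 0.0326, limma with Benjamini-Hochberg). That is 11.5-fold, with an interval of 3.24-fold to 41.0-fold. The recovered counts behind the low values were 190 in s1 and 128 in s9 for CTEPH, against 30 in s2, 15 in s6, 80 in s7, 157 in s8 and 27 in s10 for Sham, before any scaling for depth. The call was lost in 6 of the 10 refits that left out 1 library, at adjusted p = 0.0616 to 0.0829 without CTEPH library s3, s4 or s5 or Sham library s2, s6 or s10 (limma, Benjamini-Hochberg). Reads shared with other keratin genes or KRT8-derived copies were not tested.

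LMNA, which encodes lamins A and C, lies on chromosome 4 from 93899019 to 93927255, 477 kb from NES. Its log2 values were 13.09 in s1, 12.65 in s3, 12.94 in s4, 12.50 in s5 and 12.35 in s9 for CTEPH, against 12.26 in s2, 12.46 in s6, 12.21 in s7, 12.31 in s8 and 12.21 in s10 for Sham. The CTEPH values reached higher, with s9 inside the Sham range. The difference was small, 0.41 ± 0.15 (SE; interval 0.09 to 0.73), and missed the threshold (adjusted p = 0.140, limma, Benjamini-Hochberg).

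LMNB1 encodes lamin B1, found in nearly all cell types and plentiful in dividing cells, and lies on chromosome 2 from 129807228 to 129862211. A RefSeq lncRNA, LOC110259464, overlaps it, and no source used here gives the strand setting of the counting. The CTEPH libraries had log2 values of 8.40 in s1, 8.97 in s3, 9.71 in s4, 10.36 in s5 and 9.81 in s9, against 7.76 in s2, 7.67 in s6, 7.78 in s7, 7.64 in s8 and 7.73 in s10 for Sham. The Sham values lay within 0.136 log2 units of each other, while the CTEPH values were spread over 1.97 log2 units, all of them above Sham.

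Lamin B1 averaged 9.45 ± 0.77 in CTEPH and 7.72 ± 0.06 in Sham (n = 5 each, ± SD), and rose by 1.73 ± 0.30 on the log2 scale (SE; interval 1.08 to 2.38; adjusted p = 0.00592, limma with Benjamini-Hochberg). This is 3.32-fold. The recovered counts were 79 to 148 in the Sham libraries, and the counting noise at such counts was not estimated.

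LMNB2 encodes lamin B2, the second B-type lamin, on chromosome 2 from 76125932 to 76146564. It was at 9.82 in s1, 9.25 in s3, 9.94 in s4, 10.36 in s5 and 9.73 in s9 for CTEPH, against 9.04 in s2, 8.65 in s6, 8.84 in s7, 8.57 in s8 and 8.71 in s10 for Sham. All CTEPH values lay above Sham, with s3 the nearest. Lamin B2 rose by 1.06 ± 0.20 on the log2 scale (SE; interval 0.63 to 1.48; adjusted p = 0.00875, limma with Benjamini-Hochberg), or 2.08-fold. DES, LMNB1 and LMNB2 kept their calls in all 10 refits without 1 library, with adjusted p of up to 0.0485 for DES, 0.0197 for LMNB1 and 0.0271 for LMNB2 (limma, Benjamini-Hochberg).

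**Figure D2:**
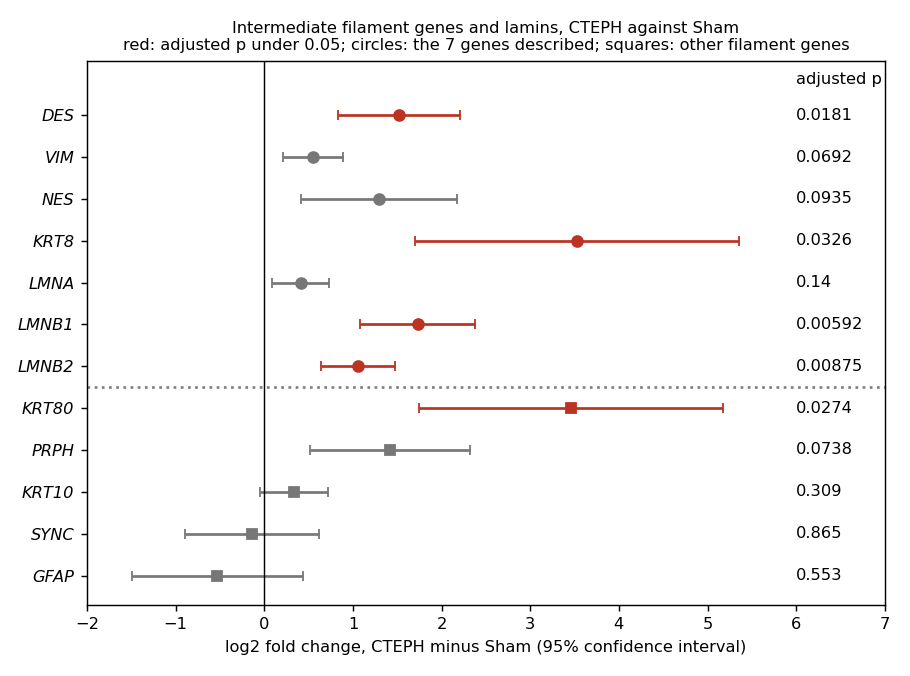
Log2 fold change, CTEPH minus Sham, with 95% confidence intervals and adjusted p for the 7 genes (circles) and 5 other intermediate filament genes (squares). KRT8 at 3.53 and KRT80 at 3.46 have the largest estimates and the widest intervals, and the B-type lamins have the smallest adjusted p.

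The lamins differed in how far they moved within a library. LMNB1 minus LMNA, a difference of log2 values that carries no comparison of abundance because gene lengths differ, was -3.25 ± 1.0 in CTEPH and -4.57 ± 0.15 in Sham (n = 5 each, ± SD), 1.32 higher in CTEPH. LMNB2 minus LMNB1 was 0.37 ± 0.61 in CTEPH and 1.04 ± 0.14 in Sham. In that last difference library s1 stood apart from the other CTEPH pigs, at 1.42, and it also had the highest LMNA value of all libraries. DES minus VIM was 4.17 ± 0.77 in CTEPH and 3.20 ± 0.44 in Sham, 0.96 higher in CTEPH. All 3 differences overlapped between the groups, and no test was made of them.

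The order of the CTEPH pigs was not the same for all genes. For DES and NES the 3 highest libraries were s4, s5 and s3, in differing order, and for KRT8 they were s3, s4 and s5. For LMNB1 they were s5, s9 and s4. Library s9 had the lowest CTEPH value of DES, KRT8 and LMNA but the second highest of LMNB1, and s1 had the highest VIM and LMNA but the lowest NES and LMNB1. The within-group SD was larger in CTEPH for 5 of the 7 genes, against 69.6% of all genes.

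**Figure D3:**
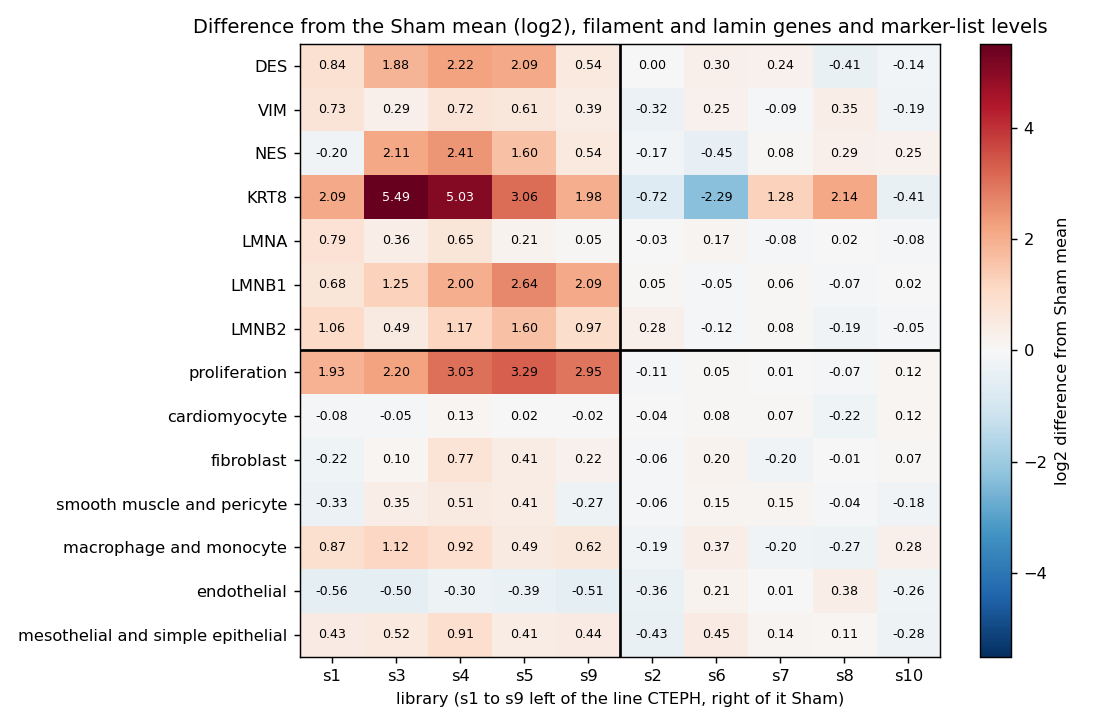
Log2 difference from the Sham mean in each library (CTEPH left of the line, Sham right) for the 7 genes, above it, and for the mean level of 7 marker lists, below it. LMNB1 and the proliferation level are both highest in s5 and lowest in s1 among CTEPH libraries, whereas NES and KRT8 are highest in s3 and s4.

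Cell division genes rose in CTEPH as well. The nuclear lamina is taken apart in mitosis after phosphorylation by CDK1 with B-type cyclins. Of 23 measured proliferation genes, 22 were called higher and 0 lower, against 2.83% and 1.79% of all genes. Their median log2 fold change was 2.83. The list's mean level, centred on each gene's mean over the 10 libraries, was 0.59 in s1, 0.86 in s3, 1.69 in s4, 1.95 in s5 and 1.61 in s9 for CTEPH, against -1.45 to -1.22 in the Sham libraries. Its order among CTEPH pigs matched that of LMNB1 except that s4 and s9 changed places. The order of LMNB2 differed: s5 was highest in both, but s1, lowest for proliferation, was the third highest for LMNB2, and s3 was its lowest. What part this has in the lamin values was not tested.

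A list of kinases, cyclins and phosphatases that act on lamins and filaments, with AKAP8L and BMS1 of other classes, had 16 measured genes. Of these, 5 were called higher and 0 lower, against 2.83% and 1.79% of all genes (median log2 fold change 0.47). They were CDK1 (3.38 ± 0.40), its cyclins CCNB1 (4.04 ± 0.38) and CCNB2 (3.77 ± 0.35), and the mitotic kinases PLK1 (1.45 ± 0.22) and AURKB (0.90 ± 0.24), each as a log2 fold change with its SE. All 5 also act in mitosis as a whole and are on the proliferation list too. AURKB lost its call in 9 of the 10 refits without 1 library, the exception being the one without s1, at adjusted p = 0.0581 to 0.115 (limma, Benjamini-Hochberg). Of the filament kinases, PAK1 differed by 0.91 ± 0.28, about as much as AURKB, and missed the threshold (adjusted p = 0.0878, limma with Benjamini-Hochberg). For PAK1, 4 CTEPH libraries lay above all Sham libraries. PRKCA (0.48 ± 0.50), ROCK1 (0.27 ± 0.19), ROCK2 (0.51 ± 0.28) and PAK2 (-0.07 ± 0.15) did not pass either.

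Enzymes that process lamins did not pass. Lamin precursors receive a farnesyl lipid, lose their last residues and are methylated, and prelamin A is then cut by ZMPSTE24. Measured were 7 genes, those of these steps together with PCYOX1 and NARF, which carry out none of them. Of the 7, 0 passed by limma, against 4.62% of all genes, and 0 reached an unadjusted p under 0.05, against 20.3%. The median log2 fold change was 0.13. ZMPSTE24 was at 9.99 ± 0.27 in CTEPH and 9.82 ± 0.21 in Sham (n = 5 each, ± SD), a difference of 0.18 ± 0.16 (adjusted p = 0.600, limma with Benjamini-Hochberg). The prenylcysteine oxidase gene PCYOX1 differed by 0.57 ± 0.32 and the lamin-binding NARF by 0.17 ± 0.20.

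Genes listed with the lamins for the nuclear envelope did not pass either. Of 23 measured genes, among them those of the LINC complex that couples lamina and cytoskeleton, 0 passed by limma, against 4.62% of all genes. An unadjusted p under 0.05 was reached by 6, against 20.3% of all genes. The median log2 fold change was -0.01. The 3 smallest p-values belonged to LMLN (0.59 ± 0.20), TOR1A (0.40 ± 0.15) and TMEM43 (0.39 ± 0.15; adjusted p = 0.118, 0.138 and 0.157, limma with Benjamini-Hochberg). LMLN is a metallopeptidase gene not established as a lamin partner, TOR1A is a torsin gene, and TMEM43 encodes an inner nuclear membrane protein. SUN1 and SUN2, the inner-membrane part of the LINC bridge, were at -0.34 ± 0.19 and -0.58 ± 0.24, and the lamin B receptor gene LBR was at -0.61 ± 0.24, none of which passed.

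**Figure D4:**
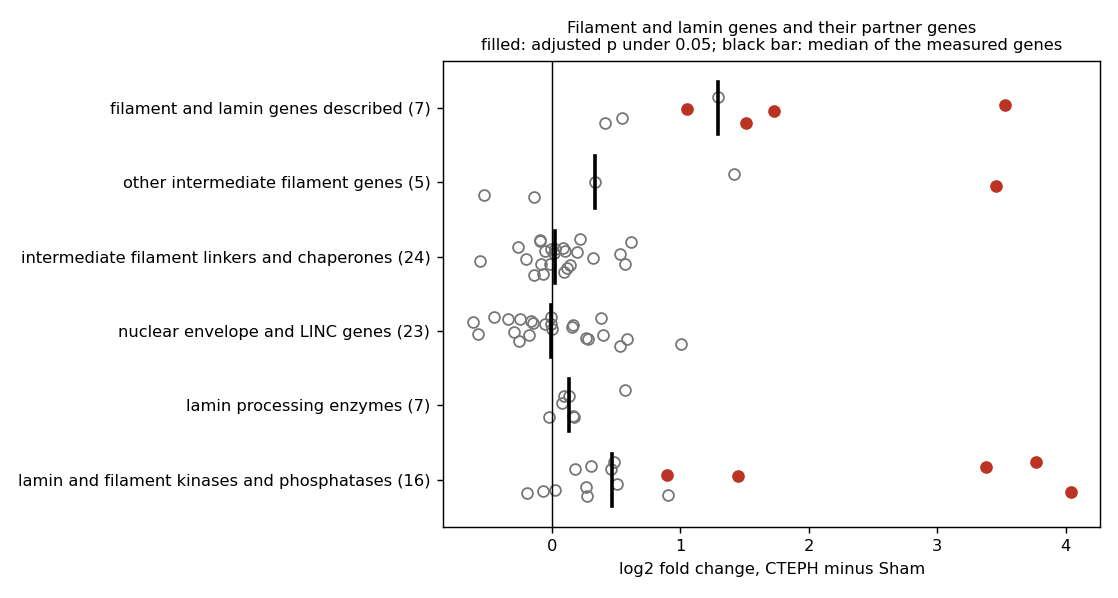
Log2 fold changes, CTEPH minus Sham, of the 7 genes and of 5 lists of partner genes, 1 point per measured gene, with the median as a bar. Filled points passed an adjusted p of 0.05; they lie among the 7 genes, in KRT80 and in 5 mitotic kinases and cyclins.

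Linkers and chaperones of the cytoplasmic filaments showed the same outcome. Of 24 measured genes 0 passed by limma, against 4.62% of all genes. An unadjusted p under 0.05 was reached by 4, against 20.3% of all genes. The median log2 fold change was 0.02. These 4 were CRYAB, HSPB8, HSPB7 and, with a negative difference, KLHL24 (-0.55 ± 0.23; adjusted p = 0.200, limma with Benjamini-Hochberg). CRYAB, the desmin chaperone, was at 16.53 ± 0.33 in CTEPH and 15.96 ± 0.19 in Sham (n = 5 each, ± SD), a difference of 0.57 ± 0.18 (adjusted p = 0.0907, limma with Benjamini-Hochberg). Of the other small heat shock proteins, HSPB8 differed by 0.54 ± 0.18, HSPB7 by 0.62 ± 0.25 and HSPB1 by -0.01 ± 0.26. Without CTEPH library s9, CRYAB (adjusted p = 0.0131), HSPB8 (0.0165) and HSPB7 (0.0113) passed (limma, Benjamini-Hochberg). Gains there were general, since that refit called 961 of all genes, against 723 with all libraries. Plectin (PLEC) and desmoplakin (DSP), which bind filaments to Z-discs and desmosomes, were at -0.20 ± 0.31 and -0.09 ± 0.32.

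Of the other intermediate filament genes, 5 of 24 listed were measured. Of these, 1 was called higher and 0 lower, against 2.83% and 1.79% of all genes. KRT80, a type II keratin of epithelia, had log2 values of 9.83 in s1, 11.15 in s3, 10.89 in s4, 11.16 in s5 and 7.20 in s9 for CTEPH, against 6.59 in s2, 5.25 in s6, 9.09 in s7, 5.82 in s8 and 6.19 in s10 for Sham. It was high in 4 CTEPH pigs and, at a lower level, in Sham pig s7, while s9 lay inside the Sham range. KRT80 rose by 3.46 ± 0.80 (SE; adjusted p = 0.0274, limma with Benjamini-Hochberg), and lost its call in 7 of the 10 refits without 1 library, at adjusted p = 0.0556 to 0.0714 without s2, s3, s4, s5, s6, s8 or s10.

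PRPH, peripherin, a filament of peripheral neurons, differed by 1.42 ± 0.42 and missed the threshold (adjusted p = 0.0738, limma, Benjamini-Hochberg). It passed without CTEPH library s1 or s9 (adjusted p = 0.0297 and 0.0182, limma with Benjamini-Hochberg). Each of these refits called 961 of all genes, against 723 with all libraries. KRT10, the keratin of upper epidermis, differed by 0.34 ± 0.18, the desmin-binding syncoilin gene SYNC by -0.14 ± 0.35 and the glial filament gene GFAP by -0.53 ± 0.45.

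Markers of the cells that could carry these filaments were set beside them. Over all genes, 2.83% were called higher and 1.79% lower, and 20.3% had an unadjusted p under 0.05 by limma. The level of 14 measured cardiomyocyte genes was -0.08 to 0.13 in CTEPH and -0.22 to 0.12 in Sham. Called higher were 2, MYL2 (0.99 ± 0.21) and the Z-disc protein gene CSRP3 (0.95 ± 0.21), and 0 were lower. The median log2 fold change was -0.05, with 6 of the 14 genes positive. CKM went the other way, at -0.62 ± 0.21, and was not called. MYL2, like DES, had all CTEPH libraries above all Sham libraries, while CSRP3 and the level of the list overlapped between groups. The part of these cells in the desmin values was not tested. CSRP3 lost its call in 5 of the 10 refits without 1 library, at adjusted p = 0.0571 to 0.0649 without s2, s4, s5, s6 or s10, and MYL2 lost it without s4, at 0.0509 (limma, Benjamini-Hochberg).

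For vimentin, the relevant lists were the fibroblast, endothelial and macrophage genes. Of 15 fibroblast genes 1 was higher, the proteoglycan gene ASPN (1.21 ± 0.24), and 0 were lower. POSTN (0.70 ± 0.20) and, with a negative difference, PDGFRA (-0.46 ± 0.20) were not called. In this list 11 of the 15 genes had positive log2 fold changes. Its level was -0.35 to 0.64 in CTEPH and -0.33 to 0.07 in Sham. Of 13 endothelial genes 0 were higher and 2 lower, TEK (-0.78 ± 0.17) and FLT1 (-0.94 ± 0.22), at a level of -0.33 to -0.07 in CTEPH and -0.13 to 0.61 in Sham. Of 14 macrophage and monocyte genes 4 were higher, among them LGMN (0.85 ± 0.16), SPP1 (2.30 ± 0.47) and LYZ (2.38 ± 0.55), at a level of 0.09 to 0.72 in CTEPH and -0.67 to -0.03 in Sham, without overlap. TEK lost its call without s3, s4, s6, s8 or s10 (adjusted p = 0.0508 to 0.0576), FLT1 without s3, s4, s6, s7 or s8 (0.0586 to 0.0770) and LYZ without s2, s3, s4, s5 or s7 (0.0558 to 0.0648; limma, Benjamini-Hochberg). The part of any of these cells in the vimentin values was not tested.

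For nestin, which vessel-wall and Schwann cells also carry, 13 smooth muscle and pericyte genes had a level of -0.40 to 0.44 in CTEPH and -0.25 to 0.08 in Sham. Among them CNN1, calponin of smooth muscle, was called higher (1.98 ± 0.47), MCAM (0.89 ± 0.27) and PDGFRB (-0.54 ± 0.19) did not pass, and 0 were lower. The median log2 fold change of the list was 0.01, with 7 of the 13 genes positive. The high libraries of that list were s3, s4 and s5, at 0.28, 0.44 and 0.34, as for nestin. The same libraries were also the highest for DES, KRT8 and the level of the other intermediate filament genes (1.09, 1.17 and 0.64). Of 9 Schwann cell and neural genes 0 were higher and 3 lower, ERBB3 (-1.11 ± 0.26), SOX10 (-1.09 ± 0.26) and L1CAM (-0.90 ± 0.21), with a level of -0.60 to 0.28 in CTEPH and -0.22 to 0.87 in Sham. CNN1 lost its call without s2, s3, s5, s6, s8 or s10 (adjusted p = 0.0599 to 0.0723), and ERBB3, SOX10 and L1CAM lost theirs in 7, 5 and 6 of the 10 refits, at up to 0.0742, 0.0772 and 0.0790 (limma, Benjamini-Hochberg). The part of these cells in the nestin values was not tested.

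For keratin 8, only 5 of 16 listed genes of mesothelium and simple epithelium were measured, and the others, the defining MSLN, UPK3B and EPCAM included, are not analysed here. By limma 0 of the 5 passed and 1, UPK1B (1.64 ± 0.51; adjusted p = 0.0856), had an unadjusted p under 0.05. WT1, a transcription factor of mesothelium, differed by 0.33 ± 0.31 and the junction gene CLDN1 by 0.86 ± 0.86. UPK1B and CLDN1 rested on few reads. For UPK1B the recovered counts were 6 to 38 in CTEPH and 1 to 13 in Sham. For CLDN1 they were 2 to 51 and 1 to 22. The list level was 0.14 to 0.64 in CTEPH and -0.70 to 0.18 in Sham, highest in s4, and its part in the keratin values was not tested. Of 9 lymphocyte genes 0 passed by limma, also at an unadjusted p under 0.05, at a level of -0.11 to 0.42 in CTEPH and -0.42 to 0.54 in Sham.

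Genes with the most similar profile were taken for each called gene as the 3 with the smallest root mean square (RMS) difference of centred log2 values over the 10 libraries, which is a description and no test. For LMNB1 these were ARHGEF39 (RMS difference 0.212), the replication helicase gene MCM6 (0.223) and the cyclin gene CCNA2 (0.258), against the RMS spread of LMNB1 itself of 0.994. For LMNB2 they were the kinetochore gene SKA3 (0.187), the flap endonuclease gene FEN1 (0.190) and the transcription factor gene ATF5 (0.233), against a spread of 0.597. For DES they were the skeletal actin gene ACTA1 (0.271), the collagen gene COL12A1 (0.284) and the filament gene PRPH (0.286), against 0.919. For KRT8 they were the slow troponin gene TNNT1 (1.03), FGF16 (1.06) and WWC1 (1.12), larger RMS differences beside a larger spread of 2.32. In Sham, FGF16 and WWC1 rested on recovered counts of only 3 to 14 and 2 to 11.

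**Figure D5:**
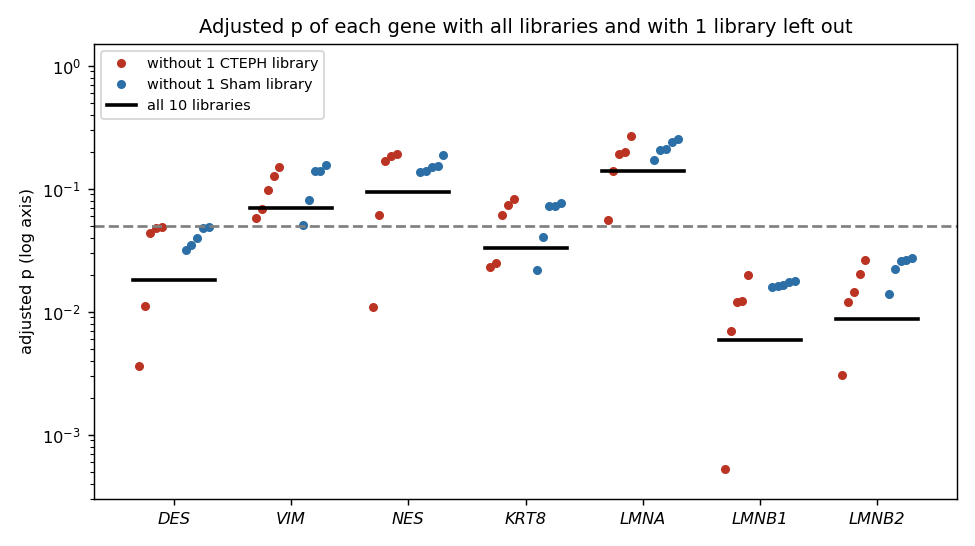
Adjusted p (log axis) of each gene with all 10 libraries (black line) and in refits without 1 CTEPH library (red) or 1 Sham library (blue); the dashed line marks 0.05. DES, LMNB1 and LMNB2 stay below the line in all refits, KRT8 lies on both sides, and 1 refit of NES, without s1, falls below it.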

How the data were processed

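Deposited values are log2 expression, 1 per gene and library, made by the authors. Per the submitters' processing notes, bcl2fastq 2.18.12, cutadapt 1.15, FastQC 0.11.5, featureCounts, edgeR 3.36.0, limma 3.50.0 and build Sscrofa11.1 were used; no source used here gives the aligner, annotation, strand setting or low-gene filter. The library medians (9.305 to 9.308) show quantile normalization, which hides a change shared by most genes. Below 9.48, values equal the quantile mean of log2(2 × count + 1) within a tolerance of 1e-06, which gave back whole counts for 52.8% of values; total counts per library are unknown. Symbols matched 12378 of the identifiers, and coordinates came from RefSeq by symbol.

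CTEPH was compared with Sham by limma 3.58.1 in R 4.3.3 with an intensity trend, no covariate, two-sided, with Benjamini-Hochberg adjustment over all genes; the test was tried on simulated data. The limma p-values set the difference between the group means against the spread between pigs within a group. Genes and lists were chosen with earlier results of these data known. Named are the 7 genes, called partner genes or the 3 smallest p-values of a list, up to 3 per marker list and the most alike genes; other names were chosen after their values were seen. Alternatives were no trend, robust variances, library weights, a filter on low genes, median centring, voom on recovered counts, an exact permutation test and leaving out each library.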

Additional observations from a re-analysis of the deposited data

Results flagged for a closer look

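Groups of 5 libraries were searched for a library far from the others, by its gap to the nearest one over the group's range against a critical value of 0.71. Of 50 groups examined, 3 had one, and chance alone flags about 1 in 20. The difference LMNB2 minus LMNB1 was 1.42 in CTEPH library s1, where the next highest CTEPH value was 0.28. DES minus VIM was 2.45 in Sham library s8, where the next lowest Sham value was 3.25. The level of the mesothelial and simple epithelial list was 0.64 in CTEPH library s4, where the next highest CTEPH value was 0.25.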

How the results depend on the processing

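No log2 fold change of the 7 genes changed sign under the alternatives run. KRT8 (3.53) lost its call without the intensity trend and with robust variances (adjusted p = 0.0644 and 0.0741, limma with Benjamini-Hochberg). KRT80 lost its call likewise (0.0552 and 0.0626), as did CNN1 (0.0595 and 0.0543). Calls were also lost by AURKB without the trend (0.0685) and without the lowest genes (0.0529), FLT1 without the trend (0.0588), and SOX10 with voom on recovered counts (0.0560). With library weights, which lower s1 and s9 most, VIM (0.58) and NES (1.6) passed (adjusted p = 0.0359 and 0.0132), so that 6 of the 7 genes were called; PRPH (0.0115), CRYAB (0.0314) and HSPB7 (0.0369) passed too. By the two-sided exact permutation test over all assignments, unadjusted, VIM (0.55) and LMNA (0.41) each had p = 0.0159, and NES had p = 0.0556. The number of the 7 genes called was 3 to 5 without 1 library. Without 1 library the log2 fold change was 1.34 to 1.76 for DES, 0.47 to 0.64 for VIM, 1.01 to 1.67 for NES, 2.96 to 4.06 for KRT8, 0.32 to 0.50 for LMNA, 1.5 to 2.0 for LMNB1 and 0.92 to 1.20 for LMNB2. Over all genes, 723 were called, 443 higher and 280 lower. Leaving out 1 library gave 401 to 961, 270 to 570 and 117 to 392, with 961 reached without s1 and without s9. Library weights gave 1269, 722 and 547, and a filter that removes the lowest 25% of genes gave 273 higher. Voom on recovered counts, for the 6763 genes with a count in every library, gave 308, 213 and 95, and held none of the 7 genes, because each exceeds the recoverable range in some library. No paired analysis was possible because each replicate number occurs once. Beyond fewer genes or libraries tested, the cause was not tested.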
